A study of Homo sapiens with 6 samples.

Results

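The aryl hydrocarbon receptor and its direct targets were followed in the cultured lung cancer line NCI-H1299 after silencing of complement factor B. The group comprises 5 genes of the 28495 in the deposited table, taken by symbol through their Ensembl identifiers: the receptor AHR, its partner ARNT and the targets TIPARP, CYP1A1 and CYP1B1. Cells in which CFB was silenced (sh-CFB) were set against cells that received the control (sh-NC), with 3 libraries in each group. The sample titles name short hairpins while the column names are of the kind used for siRNA, so the form of the reagent is not settled, and no label gives a clone number, a treatment time or a separate culture for each replicate. P-values therefore measure the spread between these libraries, which may be technical.

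AHR is a ligand-activated transcription factor of the bHLH-PAS family. Without ligand it is held in the cytosol by a complex that includes the chaperone HSP90 and the co-chaperone p23. On binding a ligand, such as dioxin-like pollutants or tryptophan products including kynurenine, it moves to the nucleus, pairs with ARNT and binds the core sequence GCGTG of the xenobiotic response element. CYP1A1 and CYP1B1 encode cytochrome P450 enzymes that oxidise polycyclic aromatic hydrocarbons, and CYP1A1 is the classical readout of receptor activity in lung. TIPARP encodes a mono-ADP-ribosyltransferase that modifies AHR and dampens it. ARNT is also the partner of the hypoxia-inducible factors. The title of the series names tryptophan metabolism, and the targets were read as a measure of receptor output.

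The 300-base windows around the starts of CYP1A1 and TIPARP are shown because these targets had the lowest and the highest fitted difference among the tested members. They run from 250 bases before the start to 50 after it, 5′ to 3′ on the strand of the gene, from RefSeq on GRCh38.p14. Capitals mark each GCGTG or its reverse complement CACGC. The CYP1A1 window is chr15:74725479-74725778 on the reverse strand and the TIPARP window, the first of 3 listed starts, is chr3:156674340-156674639 on the forward strand.
CYP1A1: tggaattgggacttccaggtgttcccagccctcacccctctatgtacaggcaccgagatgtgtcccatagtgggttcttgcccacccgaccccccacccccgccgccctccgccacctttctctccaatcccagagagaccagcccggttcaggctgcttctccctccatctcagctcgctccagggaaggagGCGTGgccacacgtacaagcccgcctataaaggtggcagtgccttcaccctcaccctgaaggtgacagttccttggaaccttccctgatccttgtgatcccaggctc
TIPARP: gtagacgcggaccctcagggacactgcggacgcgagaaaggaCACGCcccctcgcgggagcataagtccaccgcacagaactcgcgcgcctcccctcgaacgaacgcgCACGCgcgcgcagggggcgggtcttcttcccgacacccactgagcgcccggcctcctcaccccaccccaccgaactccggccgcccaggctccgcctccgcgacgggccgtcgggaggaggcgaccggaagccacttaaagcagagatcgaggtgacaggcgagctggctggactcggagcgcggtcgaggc
The CYP1A1 window held 1 match, which began 57 bases before the start. The TIPARP window held 2 matches, both on the opposite strand, beginning 208 and 142 bases before the start, and the windows of the other listed TIPARP starts held 0. The AHR window held 1 match, 37 bases after its start, and the ARNT window 0. CYP1B1 was without an entry. A match is only a run of letters: 36.5% of all 35116 windows held at least 1 and 12.7% held 2 or more.

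The values are FPKM, fragments scaled by the authors to gene length and library size, and were compared as log2(FPKM + 0.5) over the 12466 genes whose mean FPKM over all libraries reached 0.5. Whole reads could be recovered from the steps between FPKM values, with totals between 26.2 M and 38.4 M reads (M, mega) in the sh-CFB libraries and between 32.9 M and 40.0 M reads in the sh-NC libraries. The silenced gene itself was close to undetected, with 0 to 2 reads in each sh-CFB library and 1 to 6 in each sh-NC library, too few to check the label of a single library. The libraries also differed along GC content. The Spearman correlation across genes between a library's deviation and GC content was between -0.16 and 0.60 in sh-CFB and between -0.55 and 0.23 in sh-NC, with the replicate 1 libraries at both ends. The median tested gene stood at -0.15 on the log2 scale, and at 0.02 after median-of-ratios factors.

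None of the members passed the test. Across all tested genes 7.45% passed at an adjusted p of 0.05 with limma, against 0 of the 4 tested members. At an unadjusted p of 0.05, 25.9% of all tested genes and 0 of these 4 lay below the threshold, and with voom on the recovered reads 0 of 4 passed. The targets did not share a direction: the fitted difference was positive for TIPARP and negative for CYP1A1. The median log2 difference of the 4 was -0.07, beside -0.15 over all tested genes. TIPARP was the most abundant member, with a mean over all 6 libraries of 9.85 FPKM, ahead of ARNT (6.04), CYP1A1 (0.761), AHR (0.617) and CYP1B1 (0.298). TIPARP exceeded ARNT, and AHR exceeded CYP1B1, in 6 of 6 libraries. CYP1A1 exceeded AHR in 5 of 6, and the means of these neighbours lay within their spread over libraries.

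**Figure D1:**
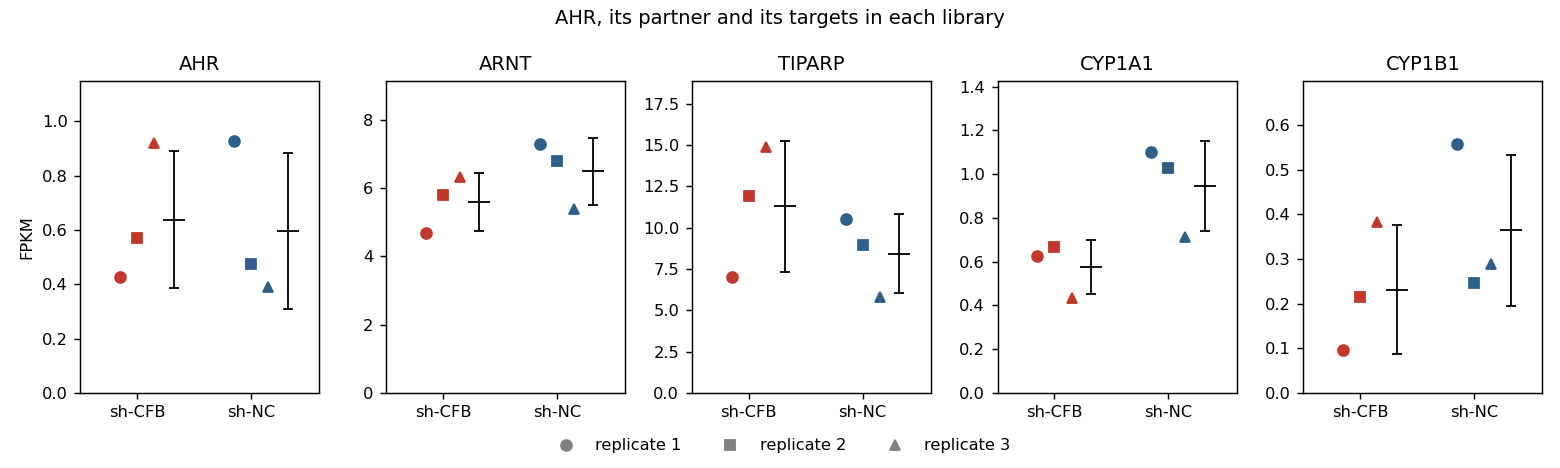
FPKM of AHR, ARNT, TIPARP, CYP1A1 and CYP1B1 (vertical axes, each from 0) in the 3 sh-CFB and 3 sh-NC libraries; symbols give the replicate number, and the bar beside each group is the mean ± SD. Only CYP1A1 separates the groups, with the highest sh-CFB library at 0.668 and the lowest sh-NC library at 0.714.

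AHR, the receptor, was expressed at a low level in both groups. Its FPKM was 0.426, 0.569 and 0.918 in sh-CFB replicates 1, 2 and 3, against 0.926, 0.475 and 0.388 in sh-NC replicates 1, 2 and 3. The groups overlapped fully, with sh-CFB replicate 3 and sh-NC replicate 1 far above the other 4 libraries. The means were 0.638 ± 0.253 in sh-CFB and 0.596 ± 0.289 in sh-NC (SD, n = 3 each). The log2 difference was 0.06 (SE 0.25, adjusted p = 0.901 with limma), or 1.04-fold with a 95% interval from 0.703 to 1.55. Each library held 90 to 284 AHR reads in sh-CFB, against 103 to 294 in sh-NC, and 4.84% of tested genes had a lower mean FPKM. The gene (ENSG00000106546) is annotated by GENCODE 29 on the forward strand of chromosome 7, from 16916359 to 17346152 on GRCh38.

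ARNT, the DNA-binding partner, stood about an order of magnitude above AHR. Its FPKM was 4.67, 5.78 and 6.33 in sh-CFB replicates 1, 2 and 3, against 7.29, 6.78 and 5.39 in sh-NC replicates 1, 2 and 3. The lowest value was in sh-CFB replicate 1 and the highest in sh-NC replicate 1, but the groups overlapped. The means were 5.60 ± 0.847 in sh-CFB and 6.49 ± 0.982 in sh-NC (SD, n = 3 each), and the log2 difference was -0.20 (SE 0.16, adjusted p = 0.494 with limma), close to that of the median tested gene. With the GC and length trends removed the sign turned (0.10, adjusted p = 0.454). ARNT (ENSG00000143437) lies on chromosome 1 from 150809705 to 150876768 on the reverse strand. The AHR over ARNT ratio of FPKM was 0.0912, 0.0984 and 0.145 in sh-CFB, against 0.127, 0.0701 and 0.0721 in sh-NC, so the receptor was the scarcer transcript of the pair in every library.

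TIPARP, the target that also restrains the receptor, had a higher mean in sh-CFB but overlapped between groups. Its FPKM was 7.02, 11.9 and 14.9 in sh-CFB replicates 1, 2 and 3, against 10.5, 8.97 and 5.81 in sh-NC replicates 1, 2 and 3. Replicates 2 and 3 of sh-CFB lay above every sh-NC library, while sh-CFB replicate 1 lay below sh-NC replicates 1 and 2. The means were 11.3 ± 3.97 in sh-CFB and 8.42 ± 2.39 in sh-NC (SD, n = 3 each). The log2 difference was 0.38 (SE 0.30, adjusted p = 0.466 with limma), or 1.30-fold with a 95% interval from 0.808 to 2.09. TIPARP (ENSG00000163659) is a forward-strand gene of chromosome 3, from 156673235 to 156706770.

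The TIPARP difference depended on the processing. GC content of the longest transcript was 42.8% for TIPARP. With trends on GC content and length taken out of each library, TIPARP passed the test, at a log2 difference of 0.65 (SE 0.16, adjusted p = 0.0468 with limma), where 5.07% of all tested genes rose. The median tested gene moved as well, from -0.15 to 0.007. Its corrected log2 values were 3.35, 3.66 and 3.89 in sh-CFB replicates 1, 2 and 3, against 3.11, 3.12 and 2.72 in sh-NC replicates 1, 2 and 3. The corrected groups did not overlap, as for 35.3% of all tested genes, 17.4% with sh-CFB higher. After median-of-ratios factors the difference was 0.57 (adjusted p = 0.182 with limma), and after quantile normalization 0.53 (adjusted p = 0.222 with limma). Neither of these uses GC content, and which part of the shift goes with GC content was not tested. Without both replicate 1 libraries, an alternative chosen after seeing the data, the difference was 0.84 (SE 0.20, adjusted p = 0.0607). Leaving out single libraries gave 0.15 without sh-NC replicate 3, 0.15 without sh-CFB replicate 3 and 0.67 without sh-CFB replicate 1, all with adjusted p of 0.171 or more.

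TIPARP-AS1, a non-coding gene on the opposite strand that starts from the same promoter region, was named after its values were seen. Its FPKM was 3.32, 3.81 and 3.94 in sh-CFB, against 2.92, 2.59 and 2.23 in sh-NC. The groups did not overlap, as for 33.7% of all tested genes in either direction. The log2 difference was 0.45 (SE 0.15, adjusted p = 0.117 with limma). With the GC and length trends removed it was 0.63 (SE 0.09, adjusted p = 0.0103 with limma), where 5.07% of all tested genes rose. The annotated spans of TIPARP and TIPARP-AS1 share 1144 bases. The strand setting of the counting is not given in the sources used here, so reads from the shared stretch cannot be told apart between them.

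CYP1A1, the classical induced P450, had a lower deposited FPKM in every sh-CFB library than in any sh-NC library, a separation that was lost after the GC and length correction. Its FPKM was 0.624, 0.668 and 0.434 in sh-CFB replicates 1, 2 and 3, against 1.10, 1.03 and 0.714 in sh-NC replicates 1, 2 and 3. It was the single member of the 5 whose groups did not overlap, and the groups were likewise apart for 33.7% of all tested genes, 23.6% in the same direction. The means were 0.575 ± 0.125 in sh-CFB and 0.947 ± 0.206 in sh-NC (SD, n = 3 each). The log2 difference was -0.42 (SE 0.18, adjusted p = 0.197 with limma), or 0.745-fold with a 95% interval from 0.553 to 1.003. The two-sided exact permutation p was 0.1, the smallest that 3 libraries against 3 allow.

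The pseudocount shrinks the change of a gene this low. With voom on the recovered reads the CYP1A1 difference was -0.74 (SE 0.28, adjusted p = 0.153). CYP1A1 reads numbered 55, 75 and 56 in the sh-CFB libraries, against 146, 138 and 79 in the sh-NC libraries. Pooled, the ratio of read rates was 0.588, with an exact 95% interval from 0.490 to 0.703 that covers counting error only. After median-of-ratios factors the log2 difference was -0.29 (adjusted p = 0.370) and with the GC and length trends removed -0.25 (adjusted p = 0.377), so the sign held while the size depended on the scaling. The corrected log2 values of CYP1A1 were 0.33, 0.30 and -0.07 in sh-CFB replicates 1, 2 and 3, against 0.59, 0.54 and 0.17 in sh-NC replicates 1, 2 and 3, and these groups overlapped. CYP1A1 (ENSG00000140465) lies on chromosome 15 from 74719542 to 74725610 on the reverse strand.

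CYP1B1, the other P450 among the targets, was the lowest member and fell under the filter, with a mean of 0.298 FPKM. Its FPKM was 0.0955, 0.215 and 0.383 in sh-CFB replicates 1, 2 and 3, against 0.559, 0.246 and 0.289 in sh-NC replicates 1, 2 and 3. The groups overlapped, with sh-NC replicate 1 highest and sh-CFB replicate 1 lowest. The means were 0.231 ± 0.144 in sh-CFB and 0.365 ± 0.170 in sh-NC (SD, n = 3 each; two-sided exact permutation p = 0.4). These rest on 15, 43 and 88 reads in the sh-CFB libraries, against 132, 59 and 57 in the sh-NC libraries. Without both replicate 1 libraries the log2 difference was 0.05, against -0.24 with all libraries. CYP1B1 (ENSG00000138061) lies on chromosome 2 from 38066973 to 38109902 on the reverse strand, and the antisense gene CYP1B1-AS1 that overlaps it, named after its values were seen, had an FPKM of at most 0.02 in every library.

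**Figure D2:**
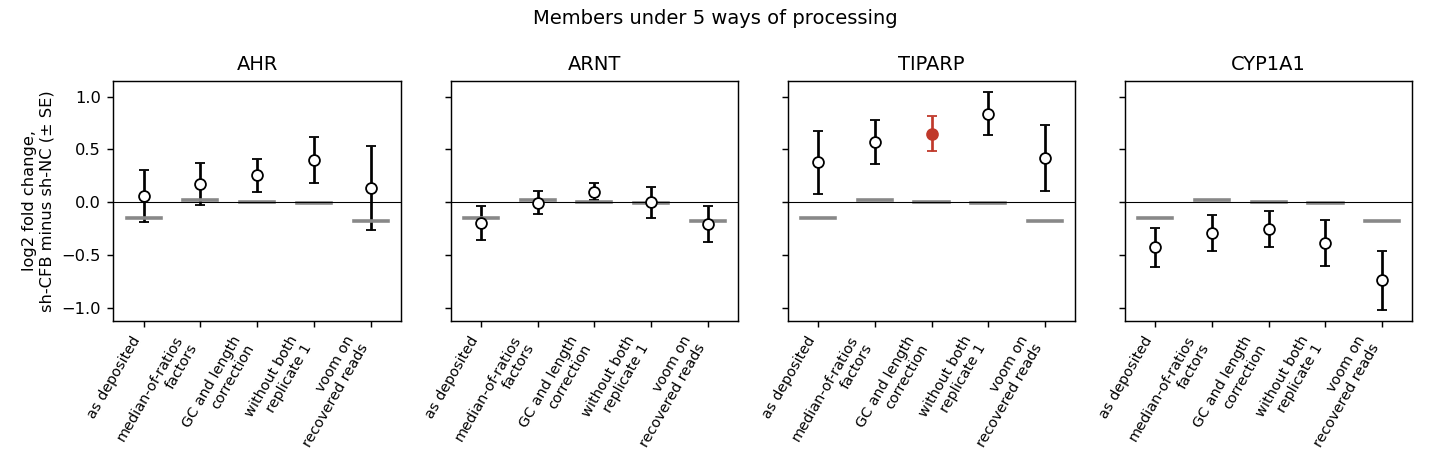
Log2 fold change (sh-CFB minus sh-NC, ± SE) of AHR, ARNT, TIPARP and CYP1A1 under 5 ways of processing; grey lines mark the median of all tested genes in the same fit, and a filled red point passed the test at an adjusted p of 0.05. TIPARP is above 0 and CYP1A1 below 0 in each, and the single point that passed is TIPARP after the GC and length correction (0.65).

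Extreme values of several members fell in the same libraries. Of the 5 members, 4 were highest in sh-NC replicate 1 and 1, TIPARP, in sh-CFB replicate 3. How many of all tested genes were highest in sh-NC replicate 1 was not counted, so this cannot be read as a trait of the members. Lowest values were in sh-CFB replicate 1 for ARNT and CYP1B1, in sh-NC replicate 3 for AHR and TIPARP, and in sh-CFB replicate 3 for CYP1A1. The replicate 1 libraries were also those at the ends of the GC trend, and the part of that trend in the members' values beyond the correction above was not tested.

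Ratios between members within a library do not depend on library size. However, they were taken on deposited FPKM, without the GC and length correction. GC content differed between members, from 38.2% for AHR to 53.3% for CYP1A1, and the part of the GC trend in the ratios was not tested. All 10 pairs of members were compared, with two-sided exact permutation tests on log2 ratios, which again cannot go below 0.1. The groups were apart for 4 of 10 ratios, each with an exact permutation p of 0.1, or 0.25 when adjusted over the 10. TIPARP over CYP1A1 was 11.3, 17.9 and 34.3 in sh-CFB replicates 1, 2 and 3, against 9.53, 8.75 and 8.14 in sh-NC replicates 1, 2 and 3, a log2 difference of 1.11. Of all other tested genes, 27.8% had a ratio to CYP1A1 that set the groups apart, so the separation is common.

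The other separated ratios also had TIPARP or AHR on one side. TIPARP over ARNT was 1.503, 2.06 and 2.35 in sh-CFB, against 1.44, 1.32 and 1.08 in sh-NC, where 24.6% of tested genes had groups apart over ARNT. TIPARP over CYP1B1 was 73.5, 55.4 and 38.9 in sh-CFB, against 18.8, 36.4 and 20.1 in sh-NC, with 3.48% of tested genes apart over CYP1B1. CYP1B1 over AHR was 0.224, 0.378 and 0.417 in sh-CFB, against 0.604, 0.519 and 0.744 in sh-NC, with 8.79% apart over AHR. In these separated ratios TIPARP stood high or CYP1B1 low in sh-CFB, but not against every member. TIPARP over AHR overlapped, at 16.47, 20.96 and 16.21 in sh-CFB, against 11.34, 18.9 and 14.95 in sh-NC (exact permutation p = 0.4). CYP1B1 over ARNT overlapped as well (exact permutation p = 0.5). CYP1A1 over AHR, the level of the classical target per unit of receptor, overlapped between groups, at 1.46, 1.17 and 0.472 in sh-CFB, against 1.19, 2.16 and 1.84 in sh-NC (exact permutation p = 0.2).

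**Figure D3:**
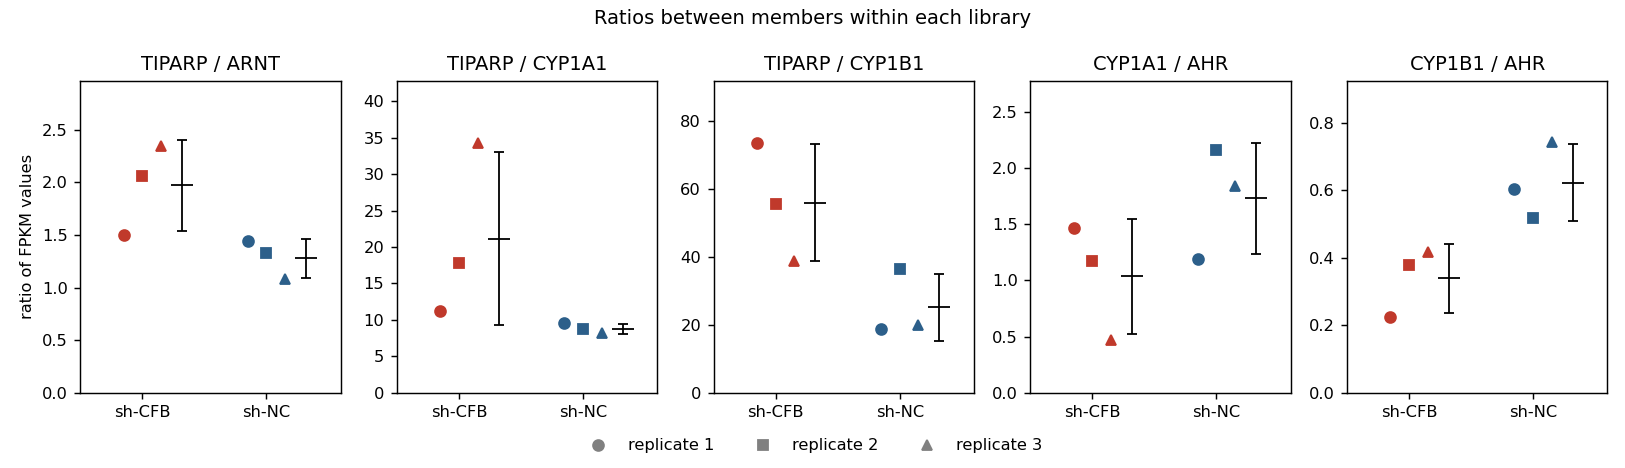
Ratios of FPKM values between members within each library (vertical axes, each from 0) for the sh-CFB and sh-NC groups; symbols give the replicate number and the bar is the mean ± SD. Groups are apart in the TIPARP ratios shown and in CYP1B1 over AHR, and overlap for CYP1A1 over AHR.

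Among genes that hold, modify or assist the receptor, 10 of 12 listed were tested, of which 1 rose, 1 fell and 8 did not pass, with a median log2 difference of -0.17 beside -0.15 over all tested genes. MACROD1, a hydrolase that removes ADP-ribose, also from AHR modified by TIPARP, was 98.5, 77.6 and 72.6 FPKM in sh-CFB, against 36.0, 45.4 and 57.8 FPKM in sh-NC. It rose by 0.84 in log2 units (SE 0.19, limma adjusted p = 0.0393; 1.74% of all tested genes rose). With the GC and length trends removed the rise was 0.61 (limma adjusted p = 0.0125). HSP90AB1, the constitutive HSP90, was 436.9, 537.9 and 552.5 FPKM in sh-CFB, against 819.9, 784.5 and 767.6 FPKM in sh-NC. Its log2 difference was -0.64 (SE 0.12, adjusted p = 0.0257 with limma), where 5.71% of all tested genes fell. With the GC and length trends removed the HSP90AB1 difference was -0.36 (adjusted p = 0.0234 with limma). Without both replicate 1 libraries 0 rose and 1 (HSP90AB1) fell. After median-of-ratios factors neither passed, at 1.05 for MACROD1 (adjusted p = 0.119) and -0.43 for HSP90AB1 (adjusted p = 0.234).

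The most abundant members of that list that did not pass were HSP90AA1, the inducible HSP90 (-0.15, adjusted p = 0.733), PTGES3, which encodes p23 (-0.38, adjusted p = 0.121), and STUB1, a chaperone-associated ubiquitin ligase (0.20, adjusted p = 0.555). ARNT2, the paralogue of ARNT, named after its values were seen, was listed at 0 in 5 of 6 libraries. AHRR, a repressor induced by the receptor and named after its values were seen, lay far under the filter. Its FPKM was 0.0241, 0.0348 and 0.0247 in sh-CFB, against 0.0588, 0.0395 and 0.0416 in sh-NC.

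None of the other genes known as receptor targets passed the test upward. Of 21 listed, 13 were in the table and 6 were tested, of which 0 rose, 2 fell and 4 did not pass, with a median of -0.21 beside -0.15 over all tested genes; 5.71% of all tested genes fell. With voom the counts were also 0 and 2, and without both replicate 1 libraries 1 (SLC7A5) fell, with NQO1 at -0.41 (limma adjusted p = 0.0575). NQO1, a quinone reductase that also responds to NRF2, was 111.0, 108.7 and 115.3 FPKM in sh-CFB, against 144.0, 143.7 and 153.5 FPKM in sh-NC. Its log2 difference was -0.40 (SE 0.08, adjusted p = 0.0349 with limma), and -0.10 (adjusted p = 0.586) with the GC and length trends removed. SLC7A5, a carrier of large neutral amino acids, was 29.9, 32.8 and 31.3 FPKM in sh-CFB, against 97.2, 83.5 and 60.6 FPKM in sh-NC. It fell by 1.32 in log2 units (SE 0.17, limma adjusted p = 0.0106). STC2, a secreted stress-response glycoprotein, was at -0.91 (adjusted p = 0.148), HES1, a transcriptional repressor, at 0.05 (adjusted p = 0.859) and CDKN1B, a CDK inhibitor, at 0.01 (adjusted p = 0.991). SERPINB2, a protease inhibitor named after its values were seen, was listed at 0 in all 3 sh-CFB libraries, against 0.111, 0.0729 and 0.0443 FPKM in sh-NC. It lay far under the filter, with 24 reads in total over all libraries, too few to read as a loss.

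Genes that supply tryptophan-derived ligands were few and mostly low. Of 10 listed, 5 were tested, of which 0 rose, 1 fell (SLC7A5, which also carries tryptophan and kynurenine) and 4 did not pass. The median was -0.24 beside -0.15 over all tested genes, of which 5.71% fell. SLC7A5 is also in the list of other targets, so its fall is counted in both lists. SLC3A2, the heavy chain that pairs with SLC7A5, was at -0.52 (adjusted p = 0.0646), AFMID, which converts formylkynurenine to kynurenine, at -0.23 (adjusted p = 0.280) and KYAT3, a kynurenine aminotransferase, at -0.01 (adjusted p = 0.976). TDO2, which opens the pathway and was named after its values were seen, had at most 0.00963 FPKM in any library. IL4I1, an enzyme that makes AHR ligands from tryptophan and was named after its values were seen, was 0.275, 0.216 and 0.376 FPKM in sh-CFB, against 0.244, 0.320 and 0.341 FPKM in sh-NC, and the groups overlapped.

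Other bHLH-PAS factors, some of which also bind ARNT, showed no change that passed the test. Of 13 listed, 11 were in the table and 6 were tested. Of these 6, 0 rose and 0 fell by limma or by voom, and 0 had an unadjusted p below 0.05, with a median of -0.18 beside -0.15 over all tested genes. EPAS1, under the filter and named after its values were seen, was 0.178, 0.205 and 0.182 FPKM in sh-CFB, against 0.508, 0.401 and 0.358 FPKM in sh-NC. In the fit without a filter it was at -0.42 (limma adjusted p = 0.192), and 0 of the 11 passed. BMAL2, a clock factor, was at -0.16 (adjusted p = 0.767), HIF1A, the oxygen-regulated subunit that pairs with ARNT, at -0.19 (adjusted p = 0.707) and NPAS1 at 0.42 (adjusted p = 0.245).

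**Figure D4:**
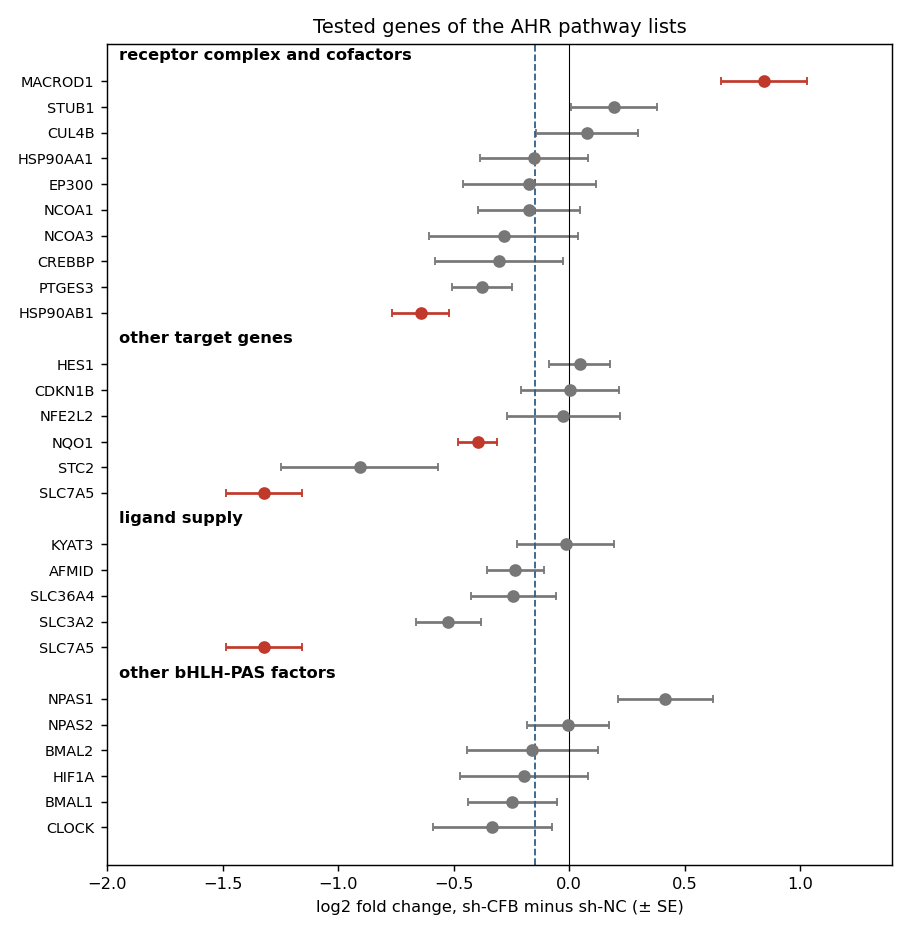
Log2 fold change (sh-CFB minus sh-NC, ± SE) of the tested genes in the receptor complex, other target, ligand supply and other bHLH-PAS lists; red points passed the test at an adjusted p of 0.05 and the dashed line is the median of all tested genes (-0.15). SLC7A5 stands lowest (-1.32) and MACROD1 highest (0.84).

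The genes whose profile over the 6 libraries was nearest to that of each tested member were found by the root-mean-square difference of centred log2 values. For TIPARP they were CAMK2D (0.08), KLF6 (0.08) and PPP4R4 (0.09), set beside a deviation of TIPARP itself of 0.43. For CYP1A1 they were FBXL18 (0.06), YWHAEP1 (0.08) and STAG3L2 (0.08), beside 0.27. For AHR they were SLC25A43 (0.05), OASL (0.06) and ABI1 (0.06), beside 0.28, and for ARNT LEO1 (0.02), TNFRSF10A (0.02) and ADCY3 (0.03), beside 0.20. With candidates limited to genes whose mean FPKM reached 2, AHR, CYP1A1 and CYP1B1 could not be among them.

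Markers were read to check the label of the line. Keratins KRT8 and KRT18 and the intermediate filament VIM were abundant, while the keratin KRT19 was not, at most 0.218 FPKM in any library. EPCAM and CDH1 of epithelial junctions and the lung lineage markers NKX2-1, NAPSA and SFTPB were each under 0.4 FPKM in every library. Of 11 markers of immune, stromal, endothelial and erythroid cells, 9 were in the table, and their summed level was at most 0.456 FPKM in sh-CFB and 0.536 FPKM in sh-NC.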

How the data were processed

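Per the labels' protocols, RNA was taken from TRIzol lysates and made into stranded, poly(A)-selected libraries. The authors deposited 1 table of FPKM values with a column per library; FastQC 0.11.9, Trimmomatic 0.39, STAR 2.7.3a, featureCounts 2.0.1 and the build GRCh38 are named in the submitters' processing notes. Annotation release, strand setting and the handling of multiply mapping reads are not stated there. Every per-sample column was used.

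Whole reads, gene lengths and library totals were recovered from the steps between FPKM values; 99.98% of genes gave whole reads within 0.02 in all libraries. Symbols came from the supplied name table (22492 of 28495 genes matched) and coordinates and GC content from the supplied GENCODE 29 annotation, which may differ from the release the authors counted on. Groups were compared by limma 3.58.1 (R 4.3.3) on log2(FPKM + 0.5) with an intensity trend, for the 12466 genes whose mean FPKM reached 0.5. Benjamini-Hochberg adjustment ran over all of them at 0.05. The fit was tested on simulated data drawn without a GC trend, so that test does not cover the GC differences between these libraries. CYP1B1, under the filter, was given an exact permutation test. In the GC and length correction a smooth trend of each library's deviation on GC content and then exon length was removed (99.4% of tested genes had a value). Other settings were another pseudocount, filter, scaling or test, a replicate block and leaving out libraries. Intervals from reads cover counting error only.

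Genes described are all 5 members, CFB, the genes of each list that passed, the 3 most abundant that did not, and the 3 nearest profiles of each tested member among genes whose mean FPKM reached 2; marker genes and others marked so in the text were named after their values were seen. Some genes of the lists are not reported here and were left out of their counts. The members and lists were chosen with earlier results of these data known. Other steps ran in Python 3.11.15 (scipy 1.17.1, numpy 2.4.6, pandas 2.3.3; plots with matplotlib 3.10.9).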

Additional observations from a re-analysis of the deposited data

How the results depend on the processing

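The members kept their direction and their side of the threshold in 80 of 88 recomputed values. Part of this count was fixed in advance. Another filter, the replicate block and the fit without an intensity trend leave each deposited log2 difference as it was, so no sign could turn there. Exact permutation tests, used for members under the filter, could not reach 0.05 with so few libraries. TIPARP passed after the GC and length correction (0.65). The sign turned for ARNT after that correction and with it in the replicate block (0.10 in both), where TIPARP had an adjusted p of 0.170, and without both replicate 1 libraries (0.0013), where CYP1B1 also turned (0.0502). Leaving out 1 library gave AHR between -0.11 and 0.27, with negative values without sh-CFB replicate 3 (-0.11), sh-NC replicate 2 (-0.0072) and sh-NC replicate 3 (-0.07). These differences are small beside their errors, and the cause was not tested. The number of changed genes over the whole table, 929, was 324 without a filter, where more genes were tested, 133 after median-of-ratios factors, 531 without the intensity trend and 318 with voom and median-of-ratios factors. Leaving out 1 library gave between 20 and 540: sh-NC replicate 2 (20), sh-CFB replicate 2 (39), sh-NC replicate 1 (249), sh-CFB replicate 3 (400), sh-CFB replicate 1 (511) and sh-NC replicate 3 (540). After the GC and length correction 628 genes were higher and 764 lower, against 217 and 712 in the deposited values. Deviations of same-numbered libraries correlated at -0.54, 0.07 and -0.45, and the replicate block called 0 genes, with or without the GC and length correction. No sh-CFB library correlated best with the sh-NC library of its own number. Whether replicate numbers mark pairs cannot be decided from these values. The replicate 1 libraries lie at opposite ends of the GC trend (0.60 and -0.55), and the block fits its extra terms on only 3 libraries per group. In the lists SLC7A5 passed in 15 of 19 alternatives, HSP90AB1 in 10, MACROD1 in 7 and NQO1 in 5. CYP1B1, under the filter, had no value with quantile normalization, the GC and length correction, the replicate block, voom or the fit without an intensity trend. With 15 to 132 reads per library, CYP1B1 has the least depth of the members.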
